A study of Mus musculus with 18 samples.

Results

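The 10 mature microRNAs (miRNAs) described here come from 2 mouse gene clusters, miR-17~92 (miR-17-5p, miR-17-3p, miR-18a-5p, miR-19a-3p, miR-19b-3p, miR-20a-5p and miR-92a-3p) and miR-106b~25 (miR-106b-5p, miR-93-5p and miR-25-3p). They were chosen by name, and all 10 were found among the 459 miRNAs of the table, 7 from the first cluster and 3 from the second. Halo-enhanced Ago2 pulldown (HEAP) was used, in which Ago2 fused to the Halo tag is crosslinked to RNA with UV light and captured covalently on a resin. The miRNA values are therefore levels of miRNA held by Ago2. The wild-type group (WT) was Halo-Ago2/+; Fabp-Cre/+ C57BL/6 mice with unaltered K-Ras, and the other group (G12D) was Halo-Ago2/+; Fabp-Cre/+; K-Ras-G12D/+ mice. All animals were 8 to 12 weeks old and all carried 1 Halo-Ago2 allele and the Cre transgene. Fabp-Cre is known for activity in the intestinal epithelium. The material was epithelium scraped from the distal colon. Each genotype had 3 miRNA libraries and 3 libraries of the RNA fragments captured with Ago2, and 6 input controls were left aside. Whether the libraries of a genotype came from different mice is not in the labels, so the tests measure the spread between libraries, part of which may be technical.

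Both clusters are transcribed as polycistronic primary transcripts, from which Drosha and Dicer release hairpins and then short duplexes. Usually 1 strand of each duplex is kept in Ago2, and its seed, bases 2 to 8, pairs with sites in target mRNAs. The miR-17~92 cluster is a known target of MYC and E2F factors and is known as oncomiR-1 for its role in lymphoma and in proliferating tissues. The miR-106b~25 cluster is a paralogous cluster in an intron of Mcm7, a DNA replication gene. Its members carry seeds that also occur in miR-17~92, so the members are grouped here by seed.

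The mature sequences are shown, under their database names with the prefix mmu for mouse, because the seed decides which members can share a site. They are RefSeq entries on build GRCm38.p6, read 5′ to 3′, with the seed in capitals, and all 10 members were matched. 4 members share the miR-17 seed, and the first 2 of these lines belong to miR-17~92 while the next 2 belong to miR-106b~25.
mmu-miR-17-5p: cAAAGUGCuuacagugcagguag
mmu-miR-20a-5p: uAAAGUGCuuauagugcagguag
mmu-miR-93-5p: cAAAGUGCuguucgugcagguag
mmu-miR-106b-5p: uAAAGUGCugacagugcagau
mmu-miR-18a-5p: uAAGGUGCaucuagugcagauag
mmu-miR-19a-3p: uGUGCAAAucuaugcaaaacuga
mmu-miR-19b-3p: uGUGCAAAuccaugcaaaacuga
mmu-miR-92a-3p: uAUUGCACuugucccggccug
mmu-miR-25-3p: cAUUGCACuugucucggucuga
mmu-miR-17-3p: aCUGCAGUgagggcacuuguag
Positions are counted from the 5′ end, with the base of the first-named miRNA before the position. From miR-17-5p to miR-20a-5p the changes were C1U and C12U, both outside the seed. From miR-17-5p to miR-18a-5p there were 6 changes, of which A4G lies in the seed, so miR-18a-5p forms a seed group of its own. The pair miR-19a-3p and miR-19b-3p differed by U11C alone. From miR-92a-3p to miR-25-3p the changes were U1C, C14U and C18U. The seed of miR-17-3p was shared with no other member.

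The 2 arms of miR-17 lie in 1 hairpin on chr14:115043671-115043754 (GRCm38.p6, plus strand), shown here with miR-17-5p and then miR-17-3p in capitals.
Mir17 hairpin: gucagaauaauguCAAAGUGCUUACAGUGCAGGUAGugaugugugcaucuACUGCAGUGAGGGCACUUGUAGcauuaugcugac
The 7 members of miR-17~92 span 813 bases of chromosome 14 (115043684 to 115044496, plus strand). Of these, only miR-92a-3p lies within the RefSeq record of the noncoding host gene Mir17hg (115044390 to 115046728), as that record is drawn. The 3 members of miR-106b~25 span 476 bases of chromosome 5 (138165332 to 138165807, minus strand) inside the Mcm7 gene. Levels were uneven along each cluster: within 813 bases the members ranged from 17.3 normalized reads (miR-17-3p) to 7709 normalized reads (miR-19b-3p) in WT.

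**Figure D1:**
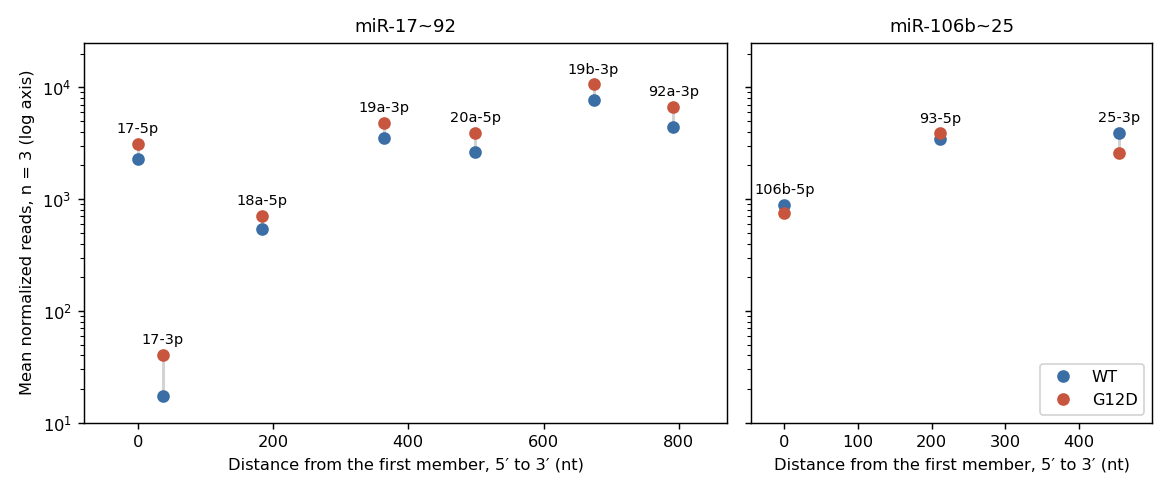
Mean normalized reads (log axis) of the members against their distance in nucleotides from the first member of the cluster, for miR-17~92 and miR-106b~25, in WT and G12D. Along miR-17~92 the miR-17-3p points lie far below all others, and along miR-106b~25 the G12D points are below WT for miR-106b-5p and miR-25-3p and above WT for miR-93-5p.

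The miRNA libraries held 337788 to 535932 reads, and the values are reads divided by a size factor per library, called normalized reads here. Markers of the epithelium fixed by name, such as miR-192-5p and the miR-200 family, were all present (8 of 8) and summed to 83557 to 120863 normalized reads in WT and 117306 to 141819 in G12D. All had a log2 fold change above 0. Those of miR-192-5p (0.51, limma adjusted p = 0.0491), miR-194-5p (0.53, limma adjusted p = 0.0339) and miR-200b-3p (0.56, limma adjusted p = 0.0364) were called higher, and the others were not called. Of 8 blood and immune markers 6 were present, summing to 1884 to 3384 in WT and 1665 to 2226 in G12D, and the red cell miRNAs miR-451a and miR-144-3p were at or near 0. Of 9 muscle and stroma markers 5 were present and summed to at most 316 normalized reads, and both endothelial markers summed to at most 67.2. Of 4 enteroendocrine and neural markers 3 were present, and their sums did not overlap, at 7303 to 8517 in WT and 8756 to 10564 in G12D. Most of that sum was miR-375-3p (log2 fold change 0.35, limma adjusted p = 0.241), and miR-9-5p, at 8.85 and 24.2 normalized reads, was called higher (1.27, limma adjusted p = 0.0474). In a tissue sample, fewer cells of a type and less RNA per cell cannot be told apart. The part of cell makeup in the results that follow was not tested.

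The members of the miR-17 seed group in miR-17~92 were among the abundant miRNAs of the colon. For miR-17-5p, the normalized reads were 1962, 2137 and 2716 in the WT libraries and 3096, 3642 and 2667 in G12D. The third G12D library lay below the highest WT library, so the groups overlapped, and the log2 fold change of 0.47 ± 0.23 (SE) did not pass the test (limma, adjusted p = 0.182). For miR-20a-5p, the WT libraries had 2315, 2292 and 3332 normalized reads and the G12D libraries 3609, 5039 and 3061. These groups overlapped too, again through the third library of each, and the log2 fold change was 0.55 ± 0.24 (SE, limma adjusted p = 0.0948). The log2 fold changes are differences of log2(normalized reads + 1), positive where G12D was higher, and the adjusted p comes from 1 limma fit over the 254 miRNAs whose mean reached 10 normalized reads.

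The miR-19 pair, which is known as the main oncogenic part of the cluster in lymphoma models, had the highest summed level of the seed groups by group mean in both genotypes. In the first WT library the miR-25/92 seed group was higher, at 10650 normalized reads against 10468. The most abundant member was miR-19b-3p, at 7222, 7558 and 8346 normalized reads in WT and 9971, 11273 and 10514 in G12D. Every G12D library lay above every WT library, with means of 7709 ± 577 and 10586 ± 654 (SD, n = 3 each), but the log2 fold change of 0.46 ± 0.19 (SE) missed the threshold (limma, adjusted p = 0.081). Its partner miR-19a-3p had 3247, 3161 and 4139 normalized reads in WT and 4539, 5407 and 4354 in G12D, also without overlap. The log2 fold change of miR-19a-3p was 0.44 ± 0.22 (SE, limma adjusted p = 0.166). Both miRNAs kept their proportion: miR-19a-3p made up 31.2% of the pair in WT and 31.0% in G12D. The mature miR-19b-3p and miR-92a-3p are also encoded by a related cluster on chromosome X that begins with miR-106a, and reads cannot tell these copies apart. Of the miRNAs encoded by that cluster alone, miR-106a-5p was at 8.53 to 13.7 normalized reads over the 6 libraries and miR-20b-5p at 0 to 2.84.

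The miRNA miR-92a-3p, which shares its seed with miR-25-3p and targets Cdkn1c and Bcl2l11 among others, rose with K-Ras-G12D. The WT libraries had 4943, 4398 and 3878 normalized reads and the G12D libraries 7176, 6602 and 6264. All G12D libraries lay above all WT libraries, and the means of 4406 ± 532 and 6681 ± 461 (SD, n = 3 each) differ 1.52-fold. The log2 fold change was 0.61 ± 0.21 (SE, limma adjusted p = 0.0364). It was called in 6 of the 17 alternative settings. The log2 fold change was 0.24 on the same total per library (adjusted p = 0.384) and 0.30 after quantile normalization (0.308), and the call was also lost with edgeR and TMM factors (0.156), with DESeq2 (0.0802), without a variance trend (0.182) and when the third WT library or any of the G12D libraries was left out.

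The low members of miR-17~92 were miR-18a-5p and miR-17-3p. For miR-18a-5p, the WT libraries had 474, 424 and 716 normalized reads and the G12D libraries 638, 865 and 599.7, which overlap (log2 fold change 0.40 ± 0.30 SE, limma adjusted p = 0.393). The passenger arm miR-17-3p rose: it had 22.7, 8.17 and 20.9 normalized reads in WT and 35.6, 36.0 and 49.9 in G12D. These values rest on few reads, 24, 12 and 28 for the WT libraries and 26, 27 and 46 for the G12D libraries. The groups did not overlap, and the log2 fold change of 1.28 ± 0.45 (SE) passed the test (limma, adjusted p = 0.0415). It was called in 5 of the 16 alternative settings that tested it. The call ended on the same total per library (adjusted p = 0.176) and without either the second or the third WT library or any of the G12D libraries. It was also lost with edgeR and TMM factors (adjusted p = 0.111), with DESeq2 (0.0911), without a variance trend (0.0640) and with no filter on low values (0.0963).

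In miR-106b~25 no member passed the test. For miR-106b-5p, which targets Cdkn1a, the WT libraries had 1027, 884 and 736 normalized reads and the G12D libraries 729.8, 637 and 873 (log2 fold change -0.24 ± 0.28 SE, limma adjusted p = 0.621). For miR-93-5p, which carries the same seed, the WT libraries had 3772, 2959.9 and 3628 and the G12D libraries 4086, 4035 and 3466 (log2 fold change 0.17 ± 0.22 SE, limma adjusted p = 0.679). Its sign depended on the scaling, since the log2 fold change was -0.20 on the same total per library, -0.079 after quantile normalization and -0.042 with edgeR and TMM factors.

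The log2 fold change of miR-25-3p had the opposite sign from that of its seed partner miR-92a-3p, without passing the test. Its WT libraries had 5708, 2619 and 3327 normalized reads and its G12D libraries 3056, 2524 and 2120.1. The first WT library stood far above the other 5 libraries, and the groups overlapped. The log2 fold change was -0.53 ± 0.25 (SE, limma adjusted p = 0.135), and without the first WT library it was -0.22 (adjusted p = 0.629). Under 4 alternatives miR-25-3p was called lower in G12D, among them the same total per library (-0.90, adjusted p = 0.0098), quantile normalization (-0.80) and edgeR with TMM factors (-0.79).

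**Figure D2:**
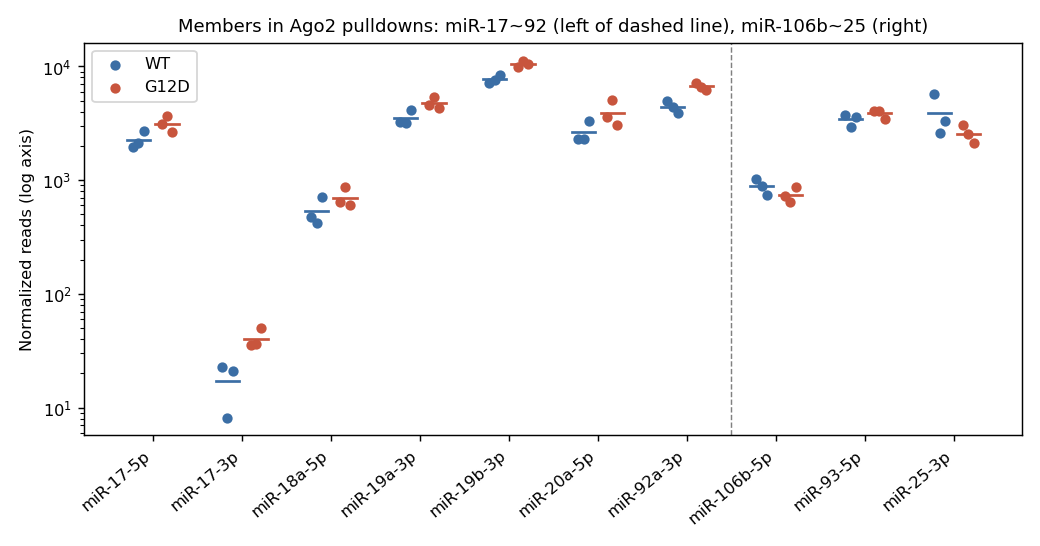
Normalized reads (log axis) of each of the 10 members in the 3 WT and 3 G12D libraries, with a line at each group's mean. The groups are apart for miR-17-3p, miR-19a-3p, miR-19b-3p and miR-92a-3p, all with G12D higher, and overlap for the other 6.

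Over the list, 2 of the 10 members were called, both higher in G12D and both in miR-17~92, where 15.7% of the 254 tested miRNAs were called, 9.06% higher and 6.69% lower. The direction of this background turned with the scaling: of the 254, 23 were higher and 17 lower on the deposited scaling, 6 and 31 on the same total per library and 11 and 26 with edgeR and TMM factors. The groups did not overlap for 4 of the 10 members, all higher in G12D, where the groups did not overlap for 29.5% of all tested miRNAs, 16.1% with G12D higher and 13.4% with G12D lower. The share called is near the background and is no result about the members. All 7 members of miR-17~92 had a log2 fold change above 0, as did 140 of the 254 tested miRNAs. The median was 0.47 in miR-17~92, beside 0.11 over all tested miRNAs, and -0.24 in miR-106b~25. The 8 epithelial markers, also all above 0, ran from 0.11 to 0.56, so a rise of this size was not particular to miR-17~92. Scaling to the same total per library moved the median of all tested miRNAs to -0.26, that of miR-17~92 to 0.10 and that of miR-106b~25 to -0.60. The 7 members of miR-17~92 stayed above 0 under every alternative scaling and test run that tested them, and with the same total, quantile or TMM scaling all 3 members of miR-106b~25 were below 0. The authors' deposited table called 30 of the 459 miRNAs and none of the 10 members, with an adjusted p of 0.0725 for miR-92a-3p and 0.0849 for miR-17-3p. There, in the authors' deposited table, an unadjusted p under 0.05 was given for 4 members.

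**Figure D3:**
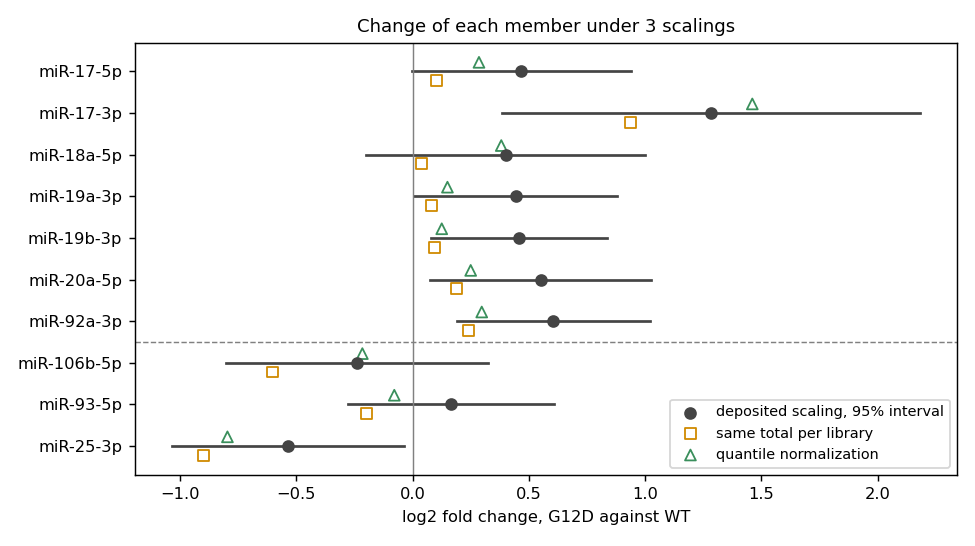
Log2 fold change, G12D against WT, of the 10 members under the deposited scaling, the same total per library and quantile normalization, with bars for the 95% confidence interval of the limma fit on the deposited scaling. The miR-17~92 members lie above 0 under each of these scalings and the miR-106b~25 members lie lower, with miR-25-3p lowest at -0.53 under the deposited scaling.

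A share within a library does not depend on how libraries are scaled, so shares compare the clusters directly. The 3 members of miR-106b~25 made up 34.2%, 24.4% and 24.9% of the reads of both clusters in WT and 21.3%, 17.96% and 19.01% in G12D. Every G12D library was below every WT library, and the means were 27.9% ± 5.51 and 19.4% ± 1.71 (SD, n = 3 each). Without the first WT library the difference shrank from -8.44 to -5.26 percentage points. Leaving out miR-25-3p, an alternative chosen after the values were seen, gave shares of 19.2%, 16.1% and 15.9% in WT and 14.2%, 12.4% and 13.6% in G12D, again without overlap. Of all miRNA reads, miR-106b~25 held 2.53%, 1.77% and 2.21% in WT and 1.70%, 1.39% and 1.37% in G12D, and miR-17~92 held 5.66% ± 0.899 and 6.16% ± 0.270 (SD, n = 3 each). Together the 10 members held 7.83% ± 0.880 of all miRNA reads in WT and 7.65% ± 0.386 in G12D, a difference smaller than the spread.

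Within miR-106b~25, miR-25-3p was 54.3%, 40.5% and 43.3% of the cluster in WT and 38.8%, 35.1% and 32.8% in G12D. The share of miR-93-5p was 35.9%, 45.8% and 47.2% in WT and 51.9%, 56.1% and 53.7% in G12D. Neither pair of groups overlapped, and each gave an exact two-sided permutation p of 0.1, the smallest that 3 against 3 libraries allow (0.533 adjusted over 16 shares). The member shares of a library depend on each other, so the lower miR-25-3p share and the higher miR-93-5p share are not separate results. Without the first WT library the difference for miR-25-3p went from -10.5 to -6.32 percentage points. The share of miR-106b-5p was 11.0% ± 2.31 in WT and 10.5% ± 2.58 in G12D. Within miR-17~92, all 7 member shares overlapped between the genotypes. miR-19b-3p held 36.6% of the cluster in WT and 35.6% in G12D, miR-92a-3p 21.1% and 22.5%, and miR-20a-5p 12.4% and 12.96%, so the makeup of this cluster was not distinguishable between the genotypes at this number of libraries.

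**Figure D4:**
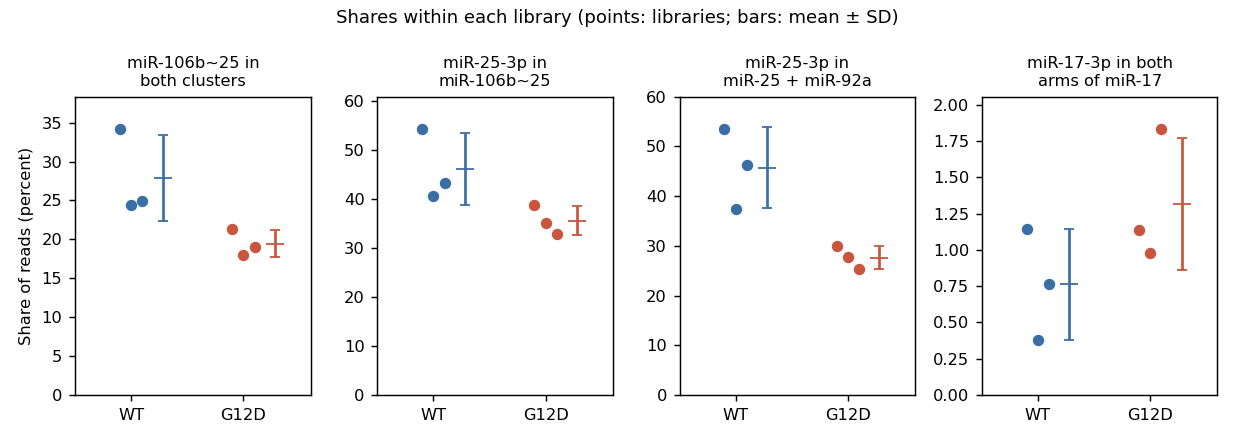
Shares in percent per library, for WT and G12D, each panel with its own axis from 0: miR-106b~25 in both clusters, miR-25-3p in miR-106b~25, miR-25-3p in the sum of miR-25-3p and miR-92a-3p, and miR-17-3p in both arms of miR-17. Points are libraries and bars the mean ± SD. The share of miR-106b~25 in both clusters was lower in every G12D library than in any WT library, whereas the share of miR-17-3p in miR-17 reads overlapped between the groups.

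Members of 1 seed group but different clusters can be set against each other in the same way, here as values with no test. The part of miR-25-3p in the sum of miR-25-3p and miR-92a-3p was 53.6%, 37.3% and 46.2% in WT and 29.9%, 27.7% and 25.3% in G12D. This ratio was chosen after its values were seen. The summed level of both was 8291 ± 2046 normalized reads in WT against 9248 ± 930 in G12D (SD, n = 3 each), which is within the spread. In the miR-17 seed group, miR-106b-5p and miR-93-5p made up 47.1% ± 5.51 in WT and 39.96% ± 4.36 in G12D. The same seed as that of miR-25-3p also occurs in miR-32-5p, a miRNA outside both clusters, at 114 to 174 normalized reads.

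The arms of the miR-17 hairpin were loaded very unequally. The share of miR-17-3p in the reads of both arms was 1.15%, 0.381% and 0.765% in WT and 1.14%, 0.978% and 1.84% in G12D. The Wilson 95% intervals, which cover counting error only, ran from 0.771 to 1.70, 0.218 to 0.665 and 0.530 to 1.10 in WT and from 0.777 to 1.66, 0.673 to 1.42 and 1.38 to 2.44 in G12D. The groups overlapped, with means of 0.764% ± 0.383 and 1.32% ± 0.457 (SD, n = 3 each, exact two-sided permutation p = 0.3, 0.8 adjusted over 16 shares). The level of miR-17-3p was called higher in the main fit, but in only 5 of the 16 alternative settings that tested it. The arm share differed by less than could be told from the spread. Whether level and arm share changed differently was not tested. Among the other arms of the clusters, the table held 5 of the 8 looked for. The passenger arm miR-106b-3p was 25.8% of the miR-106b reads in WT and 26.4% in G12D, and miR-18a-3p was 12.6% and 14.7% of the miR-18a reads. In contrast, miR-93-3p was 2.35% and 1.70% of the miR-93 reads and miR-20a-3p 0.456% and 0.130% of the miR-20a reads. The last rests on 41 reads in WT and 11 in G12D. The level of miR-20a-3p was 18.95, 8.17 and 6.73 normalized reads in WT and 5.48, 1.33 and 6.51 in G12D. These groups did not overlap, with G12D lower, but its mean of 7.86 kept it out of the main fit. None of the 3 arms tested passed (miR-18a-3p 0.65, miR-106b-3p -0.21 and miR-93-3p -0.35 as log2 fold changes).

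By mean level over the 6 libraries the members ran from miR-19b-3p, at rank 13 of 459 miRNAs, through miR-92a-3p (22), miR-19a-3p (30), miR-93-5p (33), miR-20a-5p (34), miR-25-3p (36), miR-17-5p (42), miR-106b-5p (72) and miR-18a-5p (81) to miR-17-3p (198). Levels of different miRNAs also carry their own ligation and amplification bias. For 3 of the 9 neighbouring pairs the upper member was higher in 6 of 6 libraries. These were miR-19b-3p over miR-92a-3p (mean log2 ratio 0.74), miR-17-5p over miR-106b-5p (1.72) and miR-18a-5p over miR-17-3p (4.59, a 24.0-fold difference). Each reached the smallest p that 6 libraries allow (exact sign-flip permutation test, two-sided, p = 0.0312), and none passed after adjustment over the 9 pairs (0.0938). The pairs were ordered by the means of these same libraries, so the p partly restates that order. For the other 6 pairs the order was not the same in all libraries. The place of miR-25-3p depended on the genotype: by the group mean it had place 3 among the members in WT and place 7 in G12D. The first WT library sets the former, since miR-25-3p had places 2, 5 and 6 in the single WT libraries and 7 in each G12D library. It exceeded miR-17-5p in 3 of 3 WT libraries and in 0 of 3 G12D libraries, and the mean log2 ratio was 0.71 in WT and -0.29 in G12D.

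The tested miRNAs most like each cluster were found by Pearson's r over the 6 libraries between a miRNA's log2 level and the mean log2 level of the cluster's members, among 244 non-members. The libraries share size factors and the split into genotypes, so r is a description. For miR-17~92 these were miR-142a-3p (r = 0.987), miR-374b-5p (r = 0.960) and miR-218-5p (r = 0.959), and the median non-member had r = 0.09. On the same total per library r was 0.971 for miR-142a-3p, 0.888 for miR-374b-5p and 0.820 for miR-218-5p. The log2 fold change was 0.70 for miR-374b-5p (limma adjusted p = 0.0284) and 0.83 for miR-218-5p (limma adjusted p = 0.111). The miRNA miR-142a-3p, a marker of blood cells, had 591 ± 98.9 normalized reads in WT against 925 ± 125 in G12D (SD, n = 3 each, limma adjusted p = 0.102). The other tested blood and immune markers had log2 fold changes below 0: miR-146a-5p had means of 1805 and 1030 (log2 fold change -0.75, limma adjusted p = 0.0526) and miR-150-5p had a log2 fold change of -0.14. For miR-106b~25 the most alike were miR-128-3p (r = 0.948), miR-582-3p (r = 0.910) and miR-125b-5p (r = 0.901), with a median of -0.04.

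The Ago2-bound fragments show where the seeds of the members could pair. In the authors' annotation, 154 peaks carried a match of at least 7 bases to the miR-17 seed, 26 to the miR-18 seed, 85 to the miR-19 seed and 67 to the miR-25/92 seed. A peak is a stretch of transcript where Ago2-bound reads pile up, and such a match is pairing in sequence, not proof that the member binds there. Peaks with a match lay in 3′ untranslated regions (3′ UTRs) in 67.5% of cases for the miR-17 seed, 77.6% for the miR-19 seed and 67.2% for the miR-25/92 seed, beside 54.7% of all 5448 annotated peaks. Both a miR-17 and a miR-19 match stood in 14 peaks.

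Between the genotypes, the miR-17 family had 131 tested peaks, of which 42 were higher and 11 lower in G12D, and the miR-19 family had 74, of which 25 were higher and 7 lower (limma, adjusted p under 0.05 over all peaks). Over all 4438 tested peaks 48.9% were called, 36.2% higher and 12.7% lower, so both families were near the background. The balance of higher and lower calls moved with the scaling: after quantile normalization 21 were higher and 18 lower for miR-17, 11 and 13 for miR-19, 6 and 20 for miR-25/92 and 873 and 802 for all peaks, and with edgeR and TMM factors 20 and 18 for miR-17, 14 and 15 for miR-19, 11 and 17 for miR-25/92 and 1093 and 894 for all peaks. The miR-25/92 family had 16 higher and 10 lower of 52, and the miR-18 family 7 higher and 4 lower of 23. Median log2 fold changes were 0.93 for miR-17, 0.91 for miR-19, 0.40 for miR-25/92 and 0.31 for miR-18, beside 1.05 for all peaks. After quantile normalization these medians were 0.13, 0.02, -0.74 and -0.61, beside 0.16 for all peaks, so a median above 0 for the miR-25/92 and miR-18 families holds on the deposited scaling and not on that one. The pulldown libraries held 54401 to 148770 reads in WT and 148927 to 723937 in G12D, and most tested peaks were called in the G12D set alone; the part of depth in these counts was not tested. Among the 828 tested peaks called in both genotypes, 13.9% were higher and 25.6% lower, with a median log2 fold change of -0.45. Of the 13 such peaks of the miR-25/92 family 1 was higher and 7 were lower, with a median of -1.52, of the 26 of the miR-17 family 4 were higher and 7 lower, and of the 19 of the miR-19 family 1 was higher and 4 lower. The miR-25/92 peaks held 1.07% ± 0.288 of all peak reads in WT against 0.709% ± 0.155 in G12D (SD, n = 3 each). The share of miR-17 peaks went from 2.48% to 3.17% and that of miR-19 peaks from 1.02% to 1.33%. Single peaks weigh on these shares. The Tgoln1 peak, counted for both miR-17 and miR-19, held 418 reads in the WT libraries and 4082 in the G12D libraries. The miR-25/92 peak of Osbpl2 held 614 and 350 reads. The shares without these peaks were not tested. No transcript level was set against these values, so a change of a peak and a change of its transcript cannot be told apart.

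**Figure D5:**
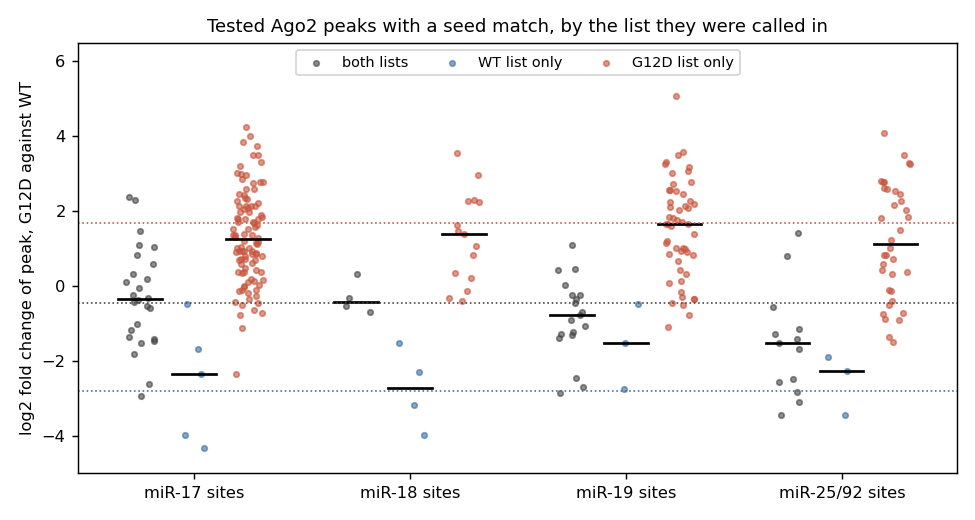
Log2 fold change, G12D against WT, of each tested peak with a match to the miR-17, miR-18, miR-19 or miR-25/92 seed, coloured by the genotype list in which the peak was called, with a black line at the median of each set and dotted lines at the medians of all tested peaks of each list. Peaks called in G12D alone entered through the group where they are high, so their higher medians follow from that selection. Over all tested peaks the median is -0.45 for those called in both genotypes and 1.68 for those called in G12D alone. For the 13 miR-25/92 peaks called in both genotypes it is -1.52.

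Single peaks show the range. A peak called in 1 genotype alone entered the set through the group where it is high, so its difference is given as a description. Among miR-25/92 peaks, the 3′ UTR of Osbpl2, which encodes a lipid-binding protein, had 257, 238 and 529.7 normalized reads in WT and 21.8, 57.1 and 38.1 in G12D. It fell by 3.10 ± 0.44 (SE) on the log2 scale (limma, adjusted p = 3.3e-04). Every G12D library lay below every WT library. The miR-25/92 peak in the 3′ UTR of Btg2, an antiproliferative gene, was called in G12D alone and had means of 0.966 and 26.6 normalized reads, resting on 1 read in the WT libraries together. Among miR-19 peaks, that of Gpcpd1 fell, with 267, 203 and 374 normalized reads in WT and 36.0, 40.4 and 48.1 in G12D. The miR-19 peak of Ivns1abp, called in G12D alone, had 2.12, 8.69 and 1.29 in WT and 172, 139 and 105.6 in G12D. The Tgoln1 peak, in a gene of the trans-Golgi network, carried both a miR-17 and a miR-19 match and rose from 276, 246 and 262 to 489, 564 and 645 normalized reads, a log2 fold change of 1.10 ± 0.32 (SE, limma adjusted p = 0.0148). The miR-17 peak with the highest level, in Ccdc71l, had 643 ± 108 normalized reads in WT against 707 ± 182 in G12D (SD, n = 3 each) and did not pass. The miR-17 peak of Trpv6, an epithelial calcium channel, was called in WT alone and had 31.8, 157 and 125 in WT and 2.18, 2.27 and 6.46 in G12D.

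Of 39 genes listed as known targets of the clusters, 20 had a peak, and 7 had a peak with a match to 1 of the 4 seeds. Of these 7 peaks, 3 were called higher and 1 lower, near the 36.2% and 12.7% of all tested peaks. The 3 higher ones, in Ccnd1, Stat3 and App, were called as peaks in G12D alone, where 47.0% of all tested peaks were higher and 0.663% lower. The miR-17 peak of Ccnd1, which encodes cyclin D1, had 6.37, 8.69 and 11.6 normalized reads in WT and 59.98, 43.3 and 43.8 in G12D (log2 fold change 2.36 ± 0.43 SE). This peak was annotated to an exon, not to the 3′ UTR. The peaks of Stat3 and App, both with a miR-17 match, had log2 fold changes of 1.68 and 3.74. That of Stat3 was also annotated to an exon, and that of App to the 3′ UTR. The peak of Map3k5, a stress-activated kinase, was called in both genotypes and had 59.4, 34.8 and 117 normalized reads in WT and 21.8, 23.7 and 23.0 in G12D and fell by 1.41. The peaks of the cell cycle inhibitors Cdkn1a and Wee1 and of the cytokine signalling inhibitor Socs1 did not pass, with log2 fold changes of 1.96, 1.18 and -0.92. Bcl2l11 and E2f1, also on the list, had no peak.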

How the data were processed

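Small RNA and Ago2-bound RNA libraries were made from distal colon epithelium, 3 per genotype for each kind (12 of 18 samples used). The deposited values are a signal: reads per miRNA or peak divided by a size factor, given with the authors' log2 fold changes and p-values in the deposited tables. STAR 2.5.2b and DESeq2 are named, per the submitters' processing notes; how reads were assigned to miRNAs is not stated there. Whole reads were recovered for 100.0% of values (tolerance 0.01 of a read), so depth is known. From these values limma 3.58.1 (R 4.3.3, trend) was run on log2(value + 1) for the 254 of 459 miRNAs with a mean of at least 10 and the 4438 of 5554 peaks with a mean of at least 5, with Benjamini-Hochberg adjustment over all and a threshold of 0.05. Count tests on the recovered reads (edgeR 4.0.16, DESeq2 1.42.0), other scalings, filters, pseudocounts and left-out libraries were alternatives. On simulated data the limma fit recovered 77.8% of 2-fold and 100% of 4-fold changes for the 254 miRNAs, and 9.80% and 54.1% for the 4438 peaks. The simulation gave every feature the same fixed dispersion, not the spread of these libraries, so these percentages are not the sensitivity for these data. Shares were tested by exact permutation, and shares that sum several members carry no p, although a test of them was planned. The members and lists were chosen with earlier results of these data known. Named were all members, their other arms, the 3 miRNAs most like each cluster, and by seed family the peaks with the highest levels and largest changes, and known targets. Some of these peaks are not reported here.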

Additional observations from a re-analysis of the deposited data

How the results depend on the processing

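The number of miRNAs called was 40, and it was 24 with a mean of at least 50, 18 without a variance trend, and between 20 and 56 when 1 library was left out. With the replicate numbers as a block it was 25, no member was called, and the adjusted p was 0.0557 for miR-17-3p and 0.0973 for miR-92a-3p. For miRNAs, deviations from the group mean had correlations of -0.0003, -0.42 and -0.32 between libraries of the same number. Between libraries of different numbers they ran from -0.21 to 0.43. With 3 libraries per group these values cannot show whether a number marks a shared source, and the labels do not say. Of the members 2 were called, and it was 0 with no filter on low values, without a variance trend or with DESeq2, 1 with a mean of at least 50, with the same total per library or with edgeR and TMM (in the last 2 it was miR-25-3p, lower in G12D), and 0 to 2 with 1 library left out. The number of peaks called was 2170, and it was 790 with a mean of at least 20 and 1410 to 2275 with 1 library left out. In separate fits on part of the peaks it was 312 for those called in both genotypes and 1062 for 3′ UTR peaks. The filters test fewer features, and for the rest the cause was not tested. Signs turned for miR-93-5p (-0.20 same total, -0.079 quantile, -0.042 edgeR with TMM) and, within 1 genotype, for the log2 ratios of miR-20a-5p to miR-25-3p (-0.50 in WT) and miR-25-3p to miR-17-5p (-0.29 in G12D). With 1 library left out, differences of shares in percentage points ran from -0.739 to 0.268 for miR-17-5p, -0.384 to 0.1004 for miR-18a-5p, -1.02 to 0.0129 for miR-19a-3p, -0.672 to 1.49 for miR-20a-5p and -0.734 to 3.13 for miR-92a-3p in miR-17~92. They ran from -1.94 to 0.873 for miR-106b-5p in miR-106b~25, and of both clusters from -1.14 to 0.958 for the miR-17 seed, -0.0787 to 0.310 for miR-18 and -5.57 to 0.104 for miR-25/92. Depth limits miR-17-3p most, at 12 to 46 reads per library.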
